A study of Saccharomyces cerevisiae with 24 samples.

Results

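The long terminal repeats (LTRs) of the yeast Ty elements were followed through 24 poly(A)-selected RNA sequencing libraries of Saccharomyces cerevisiae. They were taken as the rows of the deposited expression table whose identifier holds delta, sigma, tau or omega followed by a digit, which gave 383 of the 8009 rows naming a feature. Of these, 298 were delta, 42 sigma, 35 tau and 8 omega rows.

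Ty elements are retrotransposons, which copy themselves through an RNA that is transcribed from one LTR to the other and reverse transcribed inside a virus-like particle. Delta repeats flank Ty1 and Ty2, sigma repeats Ty3, tau repeats Ty4 and omega repeats Ty5. An LTR carries the promoter and the transcript end of its element, and recombination between both LTRs of an element leaves a solo LTR in the chromosome. Most LTRs of the yeast genome are such solo copies, and many lie beside tRNA genes, where Ty1, Ty3 and Ty4 insert.

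All strains were of the BY background and grew in SD medium, a defined medium, with histidine, leucine, uracil, lysine and 2% glucose. The 4 genotypes were WT, hsh49::Q24P, a point mutant of a U2 snRNP splicing protein, and the deletions nam8D and mud1D, each of which removes a protein of the U1 snRNP. Each was sampled in log phase and in starvation at 48 h of culture, with 3 biological replicates per group. Each genotype is 1 strain, so a difference between strains that lies outside the named mutation cannot be told apart from an effect of that mutation. Libraries hold the RNA of whole cultures, so fewer cells and less RNA per cell cannot be told apart.

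Values are TPM, a transcript abundance that scales for feature length and for the total of the library. No counts are given, so depth cannot be read from them and a 0 says only that the row is listed at 0. How strand was counted and how reads matching several repeats were treated is not given in the sources used here. That treatment matters for LTRs, which are near copies of one another. In the R64 reference genome, 55 of the 96 LTRs that flank a Ty element, 57.3%, had the full sequence of another LTR, against 10 of 288 solo LTRs, 3.47%.

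Reference LTRs carry no names in the annotation used, so a row was tied to a position where a single annotated LTR fits its chromosome, arm, strand and class, or, for YDRWdelta7, where an annotation note names it. This placed 46 rows, 34 of them among the rows tested. Positions below are those of the R64 reference, since the build of the table is not given in the sources used here. The numbers of rows and of annotated LTRs were equal in 113 of 114 combinations of chromosome, arm, strand and class, and the annotation holds 384 LTRs in all.

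The sequences that the results turn on are shown here, each read 5′ to 3′ from R64. The first 3 are sigma repeats. YNLCsigma1 (chrXIV:102632-102700, minus strand) and YPLWsigma1 (chrXVI:56290-56358, plus strand) are fragments of 69 bp that rose in starvation, further in mutants than in WT, and YKLCsigma1 is a sigma repeat of 340 bp of which the first 69 bases (chrXI:202915-202983, minus strand) are given. Capitals mark the positions at which the 3 are not all alike.
YNLCsigma1: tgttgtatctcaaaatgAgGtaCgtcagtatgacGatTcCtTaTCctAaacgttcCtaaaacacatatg
YPLWsigma1: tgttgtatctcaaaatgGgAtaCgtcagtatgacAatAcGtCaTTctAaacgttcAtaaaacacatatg
YKLCsigma1: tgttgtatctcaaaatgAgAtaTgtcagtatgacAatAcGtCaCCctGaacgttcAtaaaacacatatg
Both fragments had the same base at 61 of 69 positions. YNLCsigma1 shared 60 bases and YPLWsigma1 shared 64 bases with the start of YKLCsigma1. Each fragment begins 16 bp from a tRNA gene.

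The next 4 are shown because their positions, and so their neighbouring genes, are known, and because capitals can mark motifs in them: TGAAACA, bound by the mating pathway factor Ste12, CATTCC, bound by Tec1, and the TATA box TATAAA, each on either strand. YDRWdelta7 (first 300 of 329 bases, chrIV:520477-520776, plus strand) differed between WT and mutants, and YELCtau1 (first 300 of 322 bases, chrV:118252-118551, minus strand), YHLComega1 (chrVIII:7994-8225, minus strand) and YERWomega2 (chrV:568791-569024, plus strand) each lie just downstream of a gene on the same strand.
YDRWdelta7: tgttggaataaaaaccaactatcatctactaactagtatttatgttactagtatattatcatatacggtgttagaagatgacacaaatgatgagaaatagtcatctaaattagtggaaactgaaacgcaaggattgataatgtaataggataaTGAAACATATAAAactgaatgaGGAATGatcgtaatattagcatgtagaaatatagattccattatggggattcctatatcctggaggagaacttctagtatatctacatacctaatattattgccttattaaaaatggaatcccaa
YELCtau1: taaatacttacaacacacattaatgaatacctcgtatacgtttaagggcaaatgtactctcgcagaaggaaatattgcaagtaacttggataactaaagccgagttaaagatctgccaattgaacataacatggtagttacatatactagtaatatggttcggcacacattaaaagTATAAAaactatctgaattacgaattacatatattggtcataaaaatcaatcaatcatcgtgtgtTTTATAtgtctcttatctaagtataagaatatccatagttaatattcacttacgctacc
YHLComega1: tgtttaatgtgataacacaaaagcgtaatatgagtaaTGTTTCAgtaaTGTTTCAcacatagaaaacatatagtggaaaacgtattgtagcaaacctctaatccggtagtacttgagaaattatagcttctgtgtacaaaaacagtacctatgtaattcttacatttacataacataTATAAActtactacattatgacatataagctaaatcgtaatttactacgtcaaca
YERWomega2: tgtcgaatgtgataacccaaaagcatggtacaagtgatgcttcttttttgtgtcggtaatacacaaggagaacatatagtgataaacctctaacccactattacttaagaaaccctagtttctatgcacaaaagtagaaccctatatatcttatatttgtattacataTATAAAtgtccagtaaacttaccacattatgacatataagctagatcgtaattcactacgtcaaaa
In YDRWdelta7, TGAAACA begins at base 154, TATAAA follows it at base 161 without overlap, and CATTCC lies in reverse complement at base 176.

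These motifs were counted in LTRs of 320 to 380 bp and, for comparison, in the 330 bases before the start of 6020 genes. TGAAACA stood in 28 of 28 sigma, 56 of 180 delta and 2 of 26 tau LTRs, against 7.96% of the gene windows. CATTCC stood in 78.6% of sigma, 47.2% of delta and 69.2% of tau LTRs, against 11.3% of the windows. CATTCT, another form of the Tec1 site, stood in 14.3% of sigma, 24.4% of delta and 7.69% of tau LTRs, against 19.1% of the windows. TATAAA stood in 100% of sigma, 90.6% of delta and 92.3% of tau LTRs, against 50.8%. TGACTC, the core of the site bound by Gcn4, stood in 1 of 180 delta LTRs and in none of the sigma or tau LTRs, against 8.52% of the windows. A match shows only that these letters stand in the window.

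Most LTRs were low. Of the 383 rows, 102 were listed at 0 in all 24 libraries and 131 never reached 1 TPM. A further test needed 1 TPM in at least 3 libraries, which 236 rows met (176 delta, 34 sigma, 24 tau and 2 omega) and 147 did not, and it ran over all 6937 rows of the table that met it. The median row had a mean of 1.11 TPM, and 50 rows had a mean of at least 10 TPM.

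Where a row stands in the genome went with whether it was listed at all. The 12 rows that must flank a Ty element, because every annotated LTR of their spelling does, were listed at 0 in all libraries. Of the 164 rows that must be solo, 7 were at 0 in all libraries and 129 were tested, and for the other 207 the spelling does not decide. The coding rows inside Ty elements were alike in this: 87 of 89 Ty open reading frame rows, all those inside an annotated element, were listed at 0 in all libraries. Sequence identity was counted over annotated LTRs and zeros over rows of the table, and they were not compared row by row. Whether the zeros came from the treatment of reads that match several places was not tested.

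The class sums separate the growth states. Summed over its rows, delta was higher in starvation than in log phase in every genotype, sigma and tau likewise, and no starvation library overlapped a log library of its genotype in these 3 classes. Omega went the other way in the 3 mutants. In WT, delta rows summed to 1083, 1005 and 1065 TPM in log phase and to 1829, 2077 and 2177 TPM in starvation, a ratio of means of 1.93. The ratio was 1.69 in hsh49::Q24P, against 1.94 in nam8D and 1.66 in mud1D. All LTR rows together held 0.133% to 0.143% of the library TPM in log phase and 0.25% to 0.275% in starvation, taking the mean of each group.

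Sigma rows, the repeats of Ty3, summed to 153, 157 and 162 TPM in WT log libraries and to 272, 319 and 322 TPM in starvation, a ratio of 1.93. In nam8D the sigma sum went from 157 ± 4.91 to 413 ± 14.2 TPM (mean ± SD, n = 3), a ratio of 2.62. The 3 starved nam8D libraries lay above every other library of the study. Part of their excess over starved WT lay in the short fragments YNLCsigma1 and YPLWsigma1, whose values are given below. These are 69 bp long, against a median of 340 bp for annotated sigma LTRs. Since TPM scales for length, fewer reads give the same TPM in them. Whether their reads reach into flanking sequence was not tested. The ratio was 2.06 in hsh49::Q24P and 2.02 in mud1D.

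Tau rows, the repeats of Ty4, had the widest step among the 3 classes that were higher in starvation. They summed to 111, 111 and 120 TPM in WT log libraries and to 308, 339 and 353 TPM in starvation, a ratio of 2.92. In the mutants the ratio was 2.68 in hsh49::Q24P, against 2.87 in nam8D and 2.85 in mud1D.

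Omega rows, the repeats of Ty5, summed to 39.4, 14.1 and 11.9 TPM in WT log libraries and to 21.1, 20.3 and 21.5 TPM in starvation, so the states overlapped in WT and 1 log library stood apart from the other 2. Without that library, WT log replicate 1, the WT difference in mean log2 sums was 0.7 in place of 0.16. In the mutants omega sums were lower in starvation with no overlap, at ratios of 0.248 in hsh49::Q24P, against 0.357 in nam8D and 0.38 in mud1D. Nearly all of this class is 2 rows, YHLComega1 and YERWomega2, taken up with their neighbouring genes below. The next row, YERComega1, had a mean of 0.239 TPM and was not tested.

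**Figure D1:**
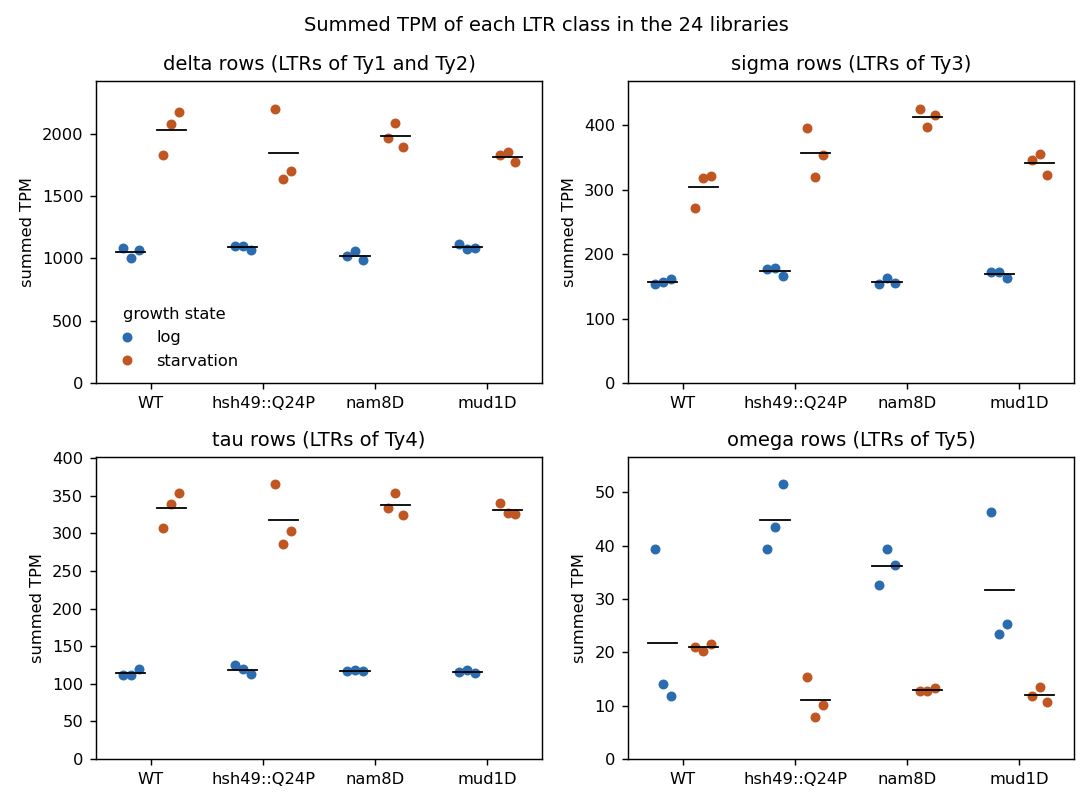
Summed TPM (vertical axes, linear, from 0) of the delta, sigma, tau and omega rows in each library, by genotype (horizontal axes); blue points are log and orange points starvation libraries, 3 per group, and black bars are means. Delta, sigma and tau sums lie higher in starvation in all 4 genotypes without overlap, whereas omega sums lie lower in starvation in the 3 mutants and overlap in WT.

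The direction of these sums depends on the scale. TPM compares each row with the rest of the library, and the median tested row itself was 0.39 to 0.50 higher in starvation on the log2(TPM + 1) scale. The libraries hold spike-in RNAs whose amounts are not given in the sources used here. When libraries were instead scaled to the summed spike-ins, the log2 difference of the delta sum became -0.37 in hsh49::Q24P, against -0.13 in nam8D and -0.15 in mud1D, and that of sigma -0.087 in hsh49::Q24P, while delta stayed at 0.64 in WT and tau at 0.29 to 1.24. On that scale the median tested row shifted by 0.23 in WT, -0.57 in hsh49::Q24P, against -0.50 in nam8D and -0.37 in mud1D, and the median tested LTR by 0.93, 0.25, 0.44 and 0.38. All changes of single rows below are on the scale of TPM as deposited.

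Row by row, differences were tested in limma on log2(TPM + 1) over all 6937 rows, and a row is called changed at a Benjamini-Hochberg adjusted p under 0.05 with a difference of at least 1 on that log2 scale. This scale understates changes of low rows. In WT, 130 of the 236 tested LTR rows rose in starvation and 7 fell, where 27.8% of all tested rows rose and 8.62% fell. In hsh49::Q24P, 110 rose and 10 fell, against 29.4% and 13.5% of all rows. In nam8D, 122 rose and 9 fell, against 28.7% and 9.87%. In mud1D, 101 rose and 9 fell, against 29.1% and 14.2%. The LTR share that rose, 42.8% to 55.1%, was above the share of all rows in each genotype, and the share that fell, 2.97% to 4.24%, below it. A row near 0 in log phase enters the test only through starved libraries, and it can then be called higher but not lower. How many LTR rows, most of them low, entered in this way was not counted. Shares and medians of LTR rows beside those of all rows, here and below, are therefore a description only. With libraries scaled to the spike-ins, the rises and falls became 69 and 28 in hsh49::Q24P, 70 and 24 in nam8D and 72 and 26 in mud1D, and 109 and 8 in WT. Shares of all tested rows are given for TPM as deposited only. Counts on other scales, here and below, therefore describe the LTR rows alone.

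By class, 97 of 176 delta, 16 of 34 sigma and 16 of 24 tau rows rose in WT. The median difference was 1.12 for delta, 0.94 for sigma and 1.21 for tau, against 0.50 over all tested rows. In nam8D the medians were 1.01, 1.36 and 1.11, against 0.46. Over the 4 genotypes, 89 LTR rows rose in each of them (37.7% of those tested, against 18.4% of all tested rows), 6 fell in each (2.54% against 5.88%), and 70 were called in none.

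**Figure D2:**
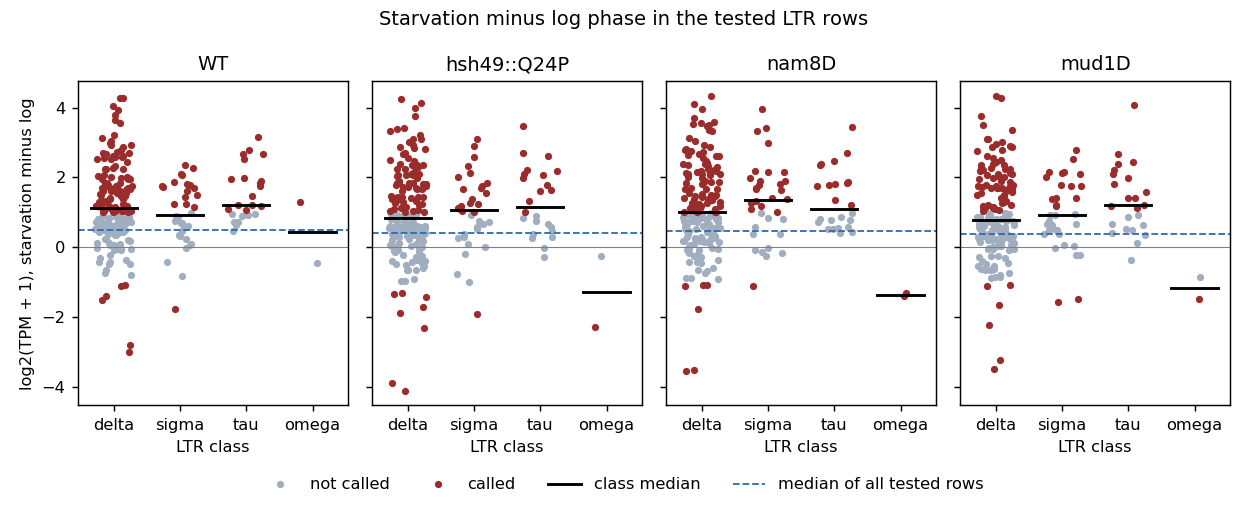
Difference between starvation and log phase on the log2(TPM + 1) scale (vertical axis) of each tested LTR row by class (horizontal axis) in the 4 genotypes, with called rows in red, the class median as a black bar and the median of all tested rows as a dashed blue line. The medians of delta, sigma and tau lie above the dashed line in every genotype, and omega is 2 rows only.

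Of the 3 delta rows with the highest means, 2 were called in no genotype between the states and 1 in nam8D. YERCdelta15, the highest LTR at a mean of 134 TPM, read 98.2, 98.9 and 104 TPM in WT log libraries and 147, 166 and 166 TPM in starvation. Its difference of 0.66 ± 0.11 (SE) was under the size needed for a call. YDRWdelta12 went from 52.0 ± 5.32 to 83.9 ± 7.41 TPM in WT (mean ± SD, n = 3) and was not called in any genotype. YPRWdelta12 read 91.6, 90.3 and 98.6 TPM in WT log libraries and 64.7, 71.2 and 74.2 TPM in starved WT, but 111 to 172 TPM in the 9 starved mutant libraries. It was therefore lower in every starved WT library than in any starved mutant library. In nam8D it rose by 1.01 ± 0.09, and in starvation it was 1.16 ± 0.09 higher in nam8D than in WT (limma, adjusted p = 5.0e-09).

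Among sigma rows, YNLWsigma3 was the highest and held one level. It read 51.5, 48.7 and 46.1 TPM in WT log libraries and 51.1, 52.0 and 54.7 TPM in starvation, and its mutant libraries spanned 42.4 to 59.2 TPM over both states. YNLWsigma2 went from 29.1 ± 4.18 to 43.5 ± 2.86 TPM in WT and was called in nam8D alone, at 1.01 ± 0.11. YERCsigma3, the other of the 3 highest sigma rows, went from 23.9 ± 2.12 to 33.2 ± 1.68 TPM in WT and was not called in any genotype. The 5 highest rows of a class carried 63.7% of the sigma sum, 53.2% of the tau sum and 30.0% of the delta sum. Without YNLWsigma3 the log2 difference of the sigma sum was 1.21 in WT and 1.78 in nam8D, in place of 0.94 and 1.39.

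Among tau rows, YBLCtau1 (chrII:35851-36221, minus strand, 177 bp from a tRNA gene) had the highest mean, 30.1 TPM, and rose in all 4 genotypes. It read 10.2, 9.34 and 10.2 TPM in WT log libraries and 36.4, 44.9 and 43.4 TPM in starvation, a difference of 1.96 ± 0.13 (limma, adjusted p = 4.3e-11). In the mutants the difference was 2.20, 2.7 and 2.68 in hsh49::Q24P, nam8D and mud1D. The next tau rows, YGRCtau3 and YHRWtau3, went from 21.7 to 41.5 and from 19.5 to 32.9 TPM in WT and did not reach the size of a call.

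The largest rises began from rows near 0. YKLCdelta5 read 1.03, 0.404 and 0.186 TPM in WT log libraries and 22.2, 30.5 and 32.1 TPM in starvation. Its difference was 4.27 ± 0.18 in WT (limma, adjusted p = 2.7e-14) and 4.26 to 4.34 in the mutants, so the 4 genotypes had nearly the same size. YJRWdelta20 went from 0.614 ± 0.00446 to 21.1 ± 0.665 TPM in WT and rose by 3.78 there and by 4.0 in hsh49::Q24P and 4.28 in mud1D. YGRCdelta25 went from 0.272 to 18.5 TPM and YORWdelta10 from 0.547 to 29.0 TPM in WT, rises of 3.94 and 4.29. YORCdelta11 went from 0.877 ± 0.361 to 22.3 ± 2.87 TPM in WT and reached 36.9, 38.4 and 33.4 TPM in starved hsh49::Q24P, nam8D and mud1D. Starved and log libraries of these rows did not overlap.

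Falls were few and some were large. YLRCdelta21 read 94.3, 84.4 and 90.7 TPM in WT log libraries and 8.72, 9.57 and 13.1 TPM in starvation. Its fall was -3.00 ± 0.12 in WT (limma, adjusted p = 1.7e-14), -3.89 in hsh49::Q24P, against -3.51 in nam8D and -3.48 in mud1D. In log phase this row was among the highest LTRs, at 103 to 147 TPM in mutant libraries, all above the 3 WT libraries. YLRCdelta9 went from 18.9 ± 0.562 to 2.05 ± 1.18 TPM in WT, and its fall ranged from -2.79 in WT to -4.11 in hsh49::Q24P. YERCdelta8 went from 58.5 ± 4.17 to 26.3 ± 0.948 TPM in WT, and its starved mutant libraries read 10.7 to 19.7 TPM, below every starved WT library. YGRCdelta12, YCRWdelta11 and YPRWsigma3 also fell in all 4 genotypes, in WT by -1.51, -1.40 and -1.76, from means of 10.1, 6.48 and 4.87 TPM. YHRCdelta11 went from 5.49 ± 0.864 to 1.14 ± 0.737 TPM in mud1D, a fall of -1.65.

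**Figure D3:**
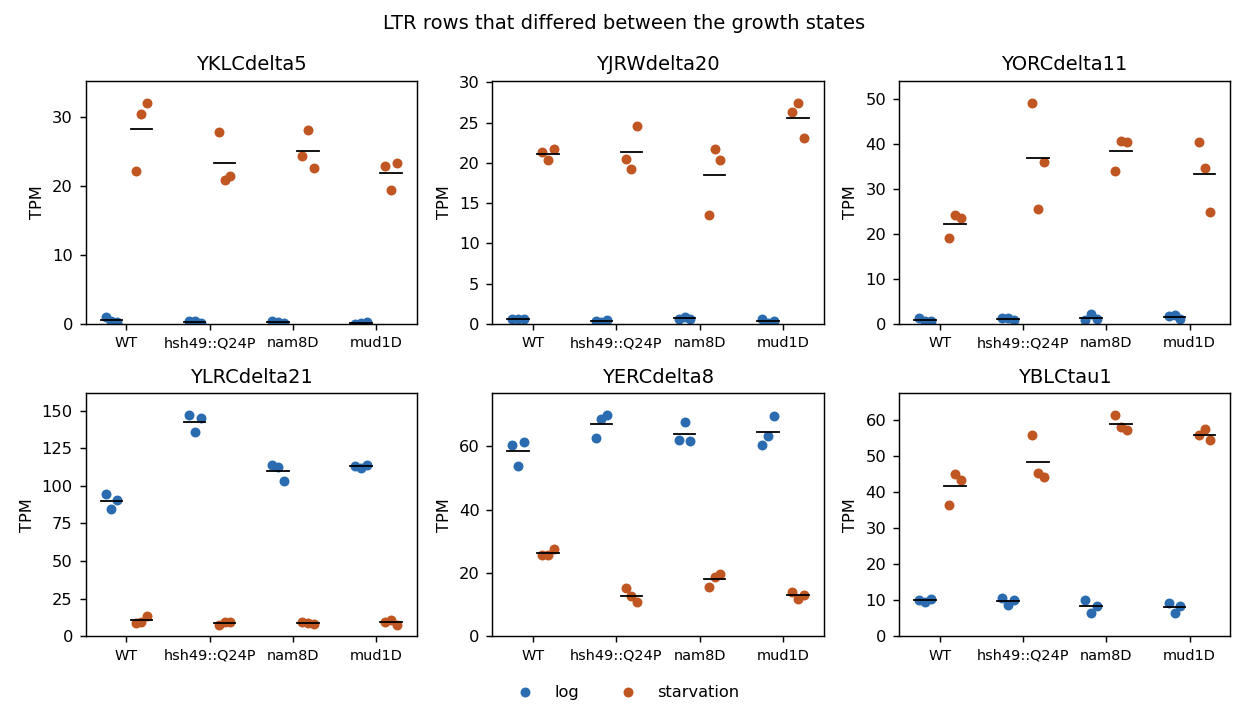
TPM (vertical axes, linear, from 0) of 6 LTR rows in each library by genotype, with log libraries in blue, starvation libraries in orange, 3 per group, and means as black bars. YKLCdelta5, YJRWdelta20, YORCdelta11 and YBLCtau1 are higher and YLRCdelta21 and YERCdelta8 lower in every starvation library than in any log library of the genotype.

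Neighbouring genes were compared where the position of a row is known and both the row and a coding gene next to it were tested. Upstream on the same strand there were 8 such pairs. In WT, 3 of these LTRs rose, 2 of them with the gene, and in hsh49::Q24P 1 rose, without the gene. In nam8D 2 rose, 1 of them with the gene, and in mud1D 4 rose, 3 of them with the gene. Rising together was not limited to this arrangement. Upstream on the opposite strand, 3 LTRs of 6 pairs rose in WT, 2 of them with the gene. Downstream on the opposite strand, 3 of 9 rose, all 3 with the gene. Downstream on the same strand, 4 of 6 rose, none with the gene. Mutant counts follow for hsh49::Q24P, nam8D and mud1D in turn, as rises with the gene out of LTR rises. Upstream on the opposite strand they were 1 of 2, 0 of 1 and 1 of 2. Downstream they were 1 of 1, 2 of 3 and 2 of 2 on the opposite strand. On the same strand downstream they were 0 of 3, 0 of 3 and 1 of 4. Falls upstream on the same strand, 1, 2 and 1 in these mutants, were all shared with the gene. Falls downstream on the opposite strand, also 1, 2 and 1, were not. Of all tested rows, 27.8% to 29.4% rose and 8.62% to 14.2% fell in these comparisons, so counts this small are a description only. In the 8 upstream pairs on the same strand, the LTR lies where a transcript that ran past the gene would enter it. Whether reads come from such a transcript or from a start in the LTR was not tested.

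YELCtau1 lies 66 bp downstream of PXP1, which encodes a peroxisomal protein. In WT the repeat read 0.465, 0.367 and 0.841 TPM in log phase and 4.89, 5.13 and 3.81 TPM in starvation, a rise of 1.85 ± 0.17. PXP1 went from 14.1 ± 0.583 to 71.9 ± 5.24 TPM in WT, a rise of 2.27 ± 0.08. In starved mutants the repeat read 1.95 to 2.87 TPM and PXP1 34.2 to 44.0 TPM, so both were lower there than in every starved WT library. The rise of PXP1 was called in all 4 genotypes and that of YELCtau1 in WT and mud1D.

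YERWomega2 lies 32 bp downstream of YER188W, an open reading frame of unknown function. In WT the repeat read 1.92, 4.38 and 3.94 TPM in log phase and 10.1, 10.2 and 8.54 TPM in starvation, a rise of 1.31 ± 0.31. In nam8D it read 12.4, 9.92 and 14.7 TPM in log phase and 4.56, 4.16 and 4.19 TPM in starvation, a fall of -1.32 ± 0.31. YER188W did the same: it went from 4.87 to 10.9 TPM in WT and from 14.5 to 5.15 TPM in nam8D, with called differences of 1.02 and -1.34. YER188C-A, 584 bp downstream of the repeat on the opposite strand, rose in both genotypes, by 1.36 in WT and 1.85 in nam8D.

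YHLComega1 lies 126 bp downstream of ARN2, which encodes a transporter of iron-carrying siderophores. The repeat read 37.5, 9.68 and 7.95 TPM in WT log libraries, and ARN2 read 112, 31.1 and 32.6 TPM in the same 3 libraries, so the first library stood high for both. In hsh49::Q24P the repeat read 33.0, 41.1 and 48.7 TPM in log phase and 9.37, 5.60 and 8.12 TPM in starvation, a fall of -2.28 ± 0.39. ARN2 fell by -2.14 ± 0.38 in that strain, from 117 ± 28.7 to 25.9 ± 7.23 TPM. Both were also called lower in nam8D and mud1D and neither in WT. COS8, 448 bp downstream on the opposite strand, rose in all 4 genotypes, by 1.09 in WT and 1.17 in hsh49::Q24P.

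**Figure D4:**
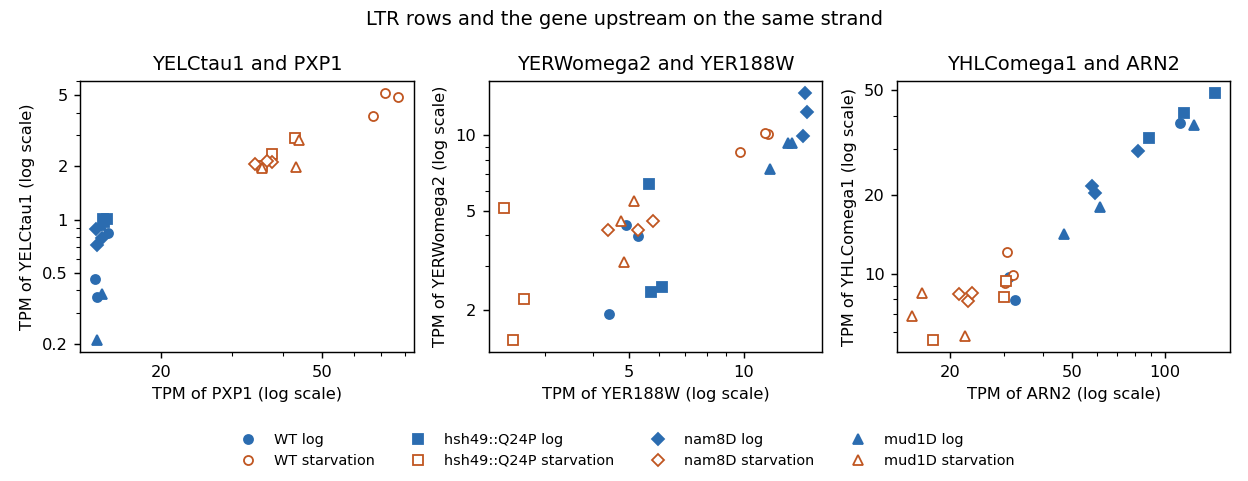
TPM of 3 LTR rows (vertical axes, log scale) against TPM of the gene just upstream on the same strand (horizontal axes, log scale) in the 24 libraries, with filled blue symbols for log and open orange symbols for starvation and a symbol shape for each genotype. The starved WT libraries lie at the top right for YELCtau1 with PXP1, and for YHLComega1 with ARN2 the upper right holds log libraries of mutants together with WT log replicate 1, at 37.5 and 112 TPM.

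In 2 further pairs the downstream gene on the same strand fell while the repeat rose. YKLCsigma1 went from 2.60 ± 0.501 to 14.1 ± 1.40 TPM in WT, a rise of 2.07 ± 0.23, while PMU1, 873 bp downstream on the same strand, fell from 115 ± 2.16 to 17.0 ± 3.49 TPM. YALCdelta2 went from 0.917 to 6.78 TPM, a rise of 2.04 ± 0.26, while ERP2, 486 bp downstream on the same strand and coding for a protein of vesicle transport, fell from 156 to 53.2 TPM. Pairs with a gene on the opposite strand went both ways in WT. YGLCtau3 rose by 1.91 ± 0.23 while the gene SRM1, 1075 bp away, fell by -1.12 ± 0.06. In other pairs repeat and gene moved the same way, and 2 of these are described here. YMRWtau2 rose by 3.17 ± 0.35 in WT, from 0.676 ± 0.729 to 13.3 ± 2.93 TPM, and SHH3, 1037 bp away on the opposite strand, rose by 8.02 ± 0.32. SHH3, related to a subunit of succinate dehydrogenase, stood at 375 ± 67.7 TPM in starved WT and at 16.3 ± 2.51 TPM in starved nam8D, where YMRWtau2 stood at 5.19 ± 2.07 TPM. YOLWtau1, with AAD15 1731 bp away on the opposite strand, read 5.17, 7.50 and 11.9 TPM in starved WT and 0, 1.49 and 1.36 TPM in starved mud1D. AAD15 was lower by -2.46 in that comparison and YOLWtau1 by -2.28.

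Between strains in log phase, few rows differed. Against WT, 0 LTR rows were called higher and 2 lower in hsh49::Q24P, where 0.0577% and 0.0721% of all tested rows were called by limma. For nam8D the counts were 1 and 2, against 0.13% and 0.0865%, and for mud1D 0 and 3, against 0.245% in either direction. At an unadjusted p under 0.05, 14 LTR rows were higher and 9 lower in hsh49::Q24P, 9 and 12 in nam8D, and 22 and 10 in mud1D. The share of all tested rows at that threshold was not counted, so these numbers do not set LTR rows apart from other rows. With spike-in scaling, 5 LTR rows were called higher and 2 lower in hsh49::Q24P and 2 and 3 in mud1D.

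Both delta rows called in all 3 comparisons, which share the WT libraries, were high in WT. YJRWdelta17 read 54.1, 42.4 and 50.1 TPM in WT log libraries and 0.819 to 4.54 TPM in the 9 mutant log libraries. In starvation it read 69.2, 84.1 and 77.2 TPM in WT and 2.03 to 5.88 TPM in the mutants. The log-phase difference was -3.69 ± 0.28 in hsh49::Q24P, against -4.25 ± 0.28 in nam8D and -4.46 ± 0.28 in mud1D (limma, adjusted p = 5.8e-10 in mud1D). The row was thus high in 1 strain in both growth states and low in the other 3, and no mutant library came near a WT library.

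YDRWdelta7, the delta repeat printed above with its Ste12 and Tec1 motifs, read 5.23, 5.05 and 8.52 TPM in WT log libraries and 0.62 to 2.20 TPM in mutant log libraries. In starvation it read 13.1, 14.4 and 7.0 TPM in WT and 1.32 to 3.63 TPM in mutants, so the strains did not overlap in either state. The log-phase difference was -1.43 ± 0.29 in hsh49::Q24P (limma, adjusted p = 0.026), -1.57 in nam8D and -1.65 in mud1D. These calls rest on few libraries: without WT log replicate 3 the adjusted p was 0.20 for hsh49::Q24P and 0.12 for nam8D, without WT log replicate 1 or 2 it was 0.057 for hsh49::Q24P, without hsh49::Q24P log replicate 2 or 3 it was 0.085 or 0.21, and without nam8D log replicate 1 or 3 it was 0.063 or 0.056 for nam8D. YDR034C-A, an open reading frame on the opposite strand inside this repeat, went from 1.44 to 10.9 TPM in WT. Between starved strains it differed in the other direction from the repeat. It stood at 23.6, 21.3 and 25.3 TPM in starved hsh49::Q24P, nam8D and mud1D, above the starved WT mean. If strand was not used in counting, reads of the pair cannot be told apart.

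YERWomega2 was the LTR called higher in log phase, by 1.63 ± 0.31 in nam8D (limma, adjusted p = 0.013), and YER188W beside it was 1.41 ± 0.09 higher. Without WT log replicate 1, nam8D log replicate 1 or nam8D log replicate 3 the adjusted p for the repeat was 0.12, 0.065 or 0.098. YOLWtau1 was the third LTR called lower in mud1D, at -1.57, from 2.90 ± 1.02 TPM in WT to 0.285 ± 0.0852 TPM.

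In starvation more rows differed. Against WT, 10 LTR rows were higher and 22 lower in hsh49::Q24P, where 3.89% and 7.5% of all tested rows were called. For nam8D the counts were 16 and 15, against 4.47% and 7.8%, and for mud1D 7 and 26, against 4.63% and 8.88%. As shares of the 236 LTR rows these are 4.24% and 9.32%, 6.78% and 6.36%, and 2.97% and 11%. They lie near the shares of all rows. Rises and falls shifted with the scale: centred on the library median they were 13 and 13 in hsh49::Q24P, 19 and 14 in nam8D and 11 and 18 in mud1D, and scaled to the spike-ins 1 and 40, 8 and 31, and 4 and 28.

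The sigma fragments shown above were among the rises. YNLCsigma1 read 9.27, 12.6 and 17.7 TPM in starved WT, 57.4, 30.2 and 38.1 TPM in starved hsh49::Q24P, 53.7, 53.3 and 55.3 TPM in starved nam8D and 33.4, 38.2 and 22.9 TPM in starved mud1D. Every starved mutant library was above every starved WT library, whereas all log libraries lay between 2.52 and 7.74 TPM. Against WT the differences in starvation were 1.59 ± 0.27, 2.00 ± 0.27 and 1.21 ± 0.27 (limma, adjusted p = 4.8e-05, 3.4e-06 and 0.00068). Without WT starvation replicate 1 the difference of mud1D was 0.998, just under the size of a call.

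YPLWsigma1 read 8.18, 5.15 and 8.61 TPM in starved WT, 23.7, 21.0 and 16.8 TPM in starved hsh49::Q24P, 23.2, 26.6 and 33.0 TPM in starved nam8D and 13.5, 14.5 and 13.3 TPM in starved mud1D. Here too the starved mutant libraries were all above the WT libraries. The differences were 1.39 ± 0.33 and 1.80 ± 0.33 in hsh49::Q24P and nam8D, and 0.85 ± 0.33 in mud1D, under the size of a call. The Ty open reading frame rows next to both fragments, 390 and 400 bp downstream, were among those listed at 0 in all libraries. YHRCsigma3, a solo sigma repeat, went from 2.81 ± 1.30 TPM in starved WT to 8.43 ± 1.15 TPM in starved hsh49::Q24P, a difference of 1.35.

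Delta and tau rows moved in both directions between starved strains. YERCtau2 read 14.1, 13.3 and 17.6 TPM in starved WT and 27.3 to 46.7 TPM in starved mutants, with differences of 1.27, 1.16 and 1.51 in hsh49::Q24P, nam8D and mud1D. YORCdelta15 stood at 2.78 ± 0.603 TPM in starved WT and at 8.43, 11 and 6.69 TPM in the starved mutants. YMRCdelta13 went from 5.33 ± 0.996 TPM in WT to 16.5 ± 3.44 TPM in nam8D, and YELCdelta3 from 7.25 ± 1.95 to 28 ± 4.64 TPM. In mud1D, YDRCdelta6a was 1.27 and YLRWdelta4 1.25 higher than in WT. YDRCdelta6b was called higher in hsh49::Q24P and mud1D, at 1.43 and 1.42, but the spread was wide, with 11.6, 3.23 and 15.9 TPM in hsh49::Q24P. Without 1 of several libraries of the groups compared (WT starvation replicates 1 and 2, hsh49::Q24P starvation replicates 1 and 3, mud1D starvation replicate 1) its adjusted p ranged from 0.06 to 0.13.

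The rows that were lower in starved mutants include YHRWdelta7, a solo delta repeat that rose in all 4 genotypes. It read 32.6, 36.3 and 40.7 TPM in starved WT and 11.2 to 16.6 TPM in starved mutants, with differences of -1.33, -1.33 and -1.47. YOLCdelta1 read 8.62, 8.49 and 9.07 TPM in starved WT and 0.32 to 2.82 TPM in starved mutants, with differences of -1.57 ± 0.19, -2.28 ± 0.19 and -2.65 ± 0.19. YLRWdelta6 went from 18.5 ± 2.42 TPM in starved WT to 4.11 ± 1.53 TPM in mud1D, YERWdelta12 from 6.83 ± 1.25 to 1.47 ± 0.778 TPM in mud1D, and YORWdelta16 from 8.56 ± 3.06 to 2.37 ± 1.42 TPM in hsh49::Q24P. In these 5 rows no starved mutant library overlapped a starved WT library.

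**Figure D5:**
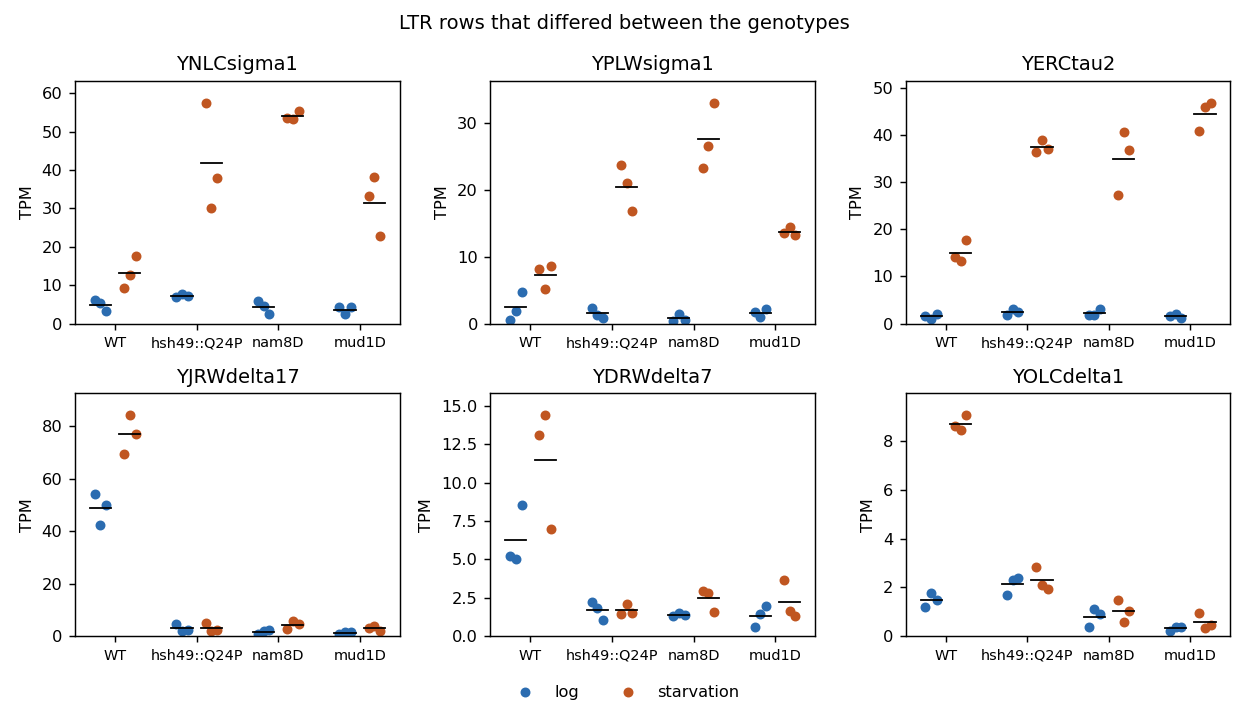
TPM (vertical axes, linear, from 0) of 6 LTR rows in each library by genotype, with log libraries in blue, starvation libraries in orange, 3 per group, and means as black bars. YNLCsigma1, YPLWsigma1 and YERCtau2 are higher in starved mutants than in starved WT, YOLCdelta1 is lower there, and YJRWdelta17 and YDRWdelta7 are high in WT in both states.

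The starvation responses themselves were compared with an interaction term. Against the response of WT, 11 LTR rows had a higher and 26 a lower response in hsh49::Q24P, where 3.34% and 7.9% of all tested rows were called. The counts were 15 and 15 in nam8D, against 4.27% and 8.65%, and 7 and 26 in mud1D, against 3.98% and 9.56%. Scaled to the spike-ins, on which the WT response of the median row stood apart from that of the mutants, the counts were 1 and 86, 4 and 61, and 1 and 67, and with median centring they were 13 and 17, 16 and 12, and 11 and 20. The response of YPLWsigma1 was 1.68 ± 0.47 larger in hsh49::Q24P and 2.52 ± 0.47 larger in nam8D than in WT. That of YERWomega2 was -2.63 ± 0.43 in nam8D, since the row rose in WT and fell in nam8D.

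Most rows of the complete Ty elements were listed low. How reads matching several copies were treated is not given, so low values there do not show that Ty RNA was scarce. The 31 Ty1 element rows summed to 55.2 TPM in WT log libraries, most of it in YLRWTy1-3. Of 50 Ty element rows, 8 were tested. YLRWTy1-3 went from 48.6 ± 2.94 TPM in WT log libraries to 12.7, 11.9 and 14.7 TPM in starvation, a fall of -1.82 ± 0.11, and it was called lower in hsh49::Q24P and mud1D as well, at -1.43 and -1.21, but not in nam8D at -0.87. The other 7 were called in no genotype. Both Ty open reading frame rows that lie outside an annotated element, YLR035C-A and YDR170W-A, had means of 83.6 and 20.4 TPM and were called lower in WT, at -1.05 and -1.54, and in no mutant. Of the element rows not called, YILWTy3-1 and YLRCTy2-2 were higher in starved WT, by 0.51 ± 0.15 and 0.60 ± 0.18 (limma, adjusted p = 0.0035 and 0.0041), and YNLCTy2-1 and YDRCTy1-2 were lower, by -0.64 ± 0.16 and -0.38 ± 0.12 (limma, adjusted p = 0.0011 and 0.0077), all under the size of a call.

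Genes of known regulators of Ty transcription were counted in the same fit. Of 26 transcription factors and coactivators of Ty elements, all tested, 1 rose and 1 fell in starved WT, 2 and 3 in hsh49::Q24P, 3 and 1 in nam8D and 4 and 3 in mud1D. Of all tested rows, 27.8% rose and 8.62% fell in WT and 29.1% and 14.2% in mud1D. The list had a median difference of 0.31 in WT, against 0.50 over all tested rows. GCR1, a factor known for glycolytic genes that also acts on Ty2, fell in all 4 genotypes, in WT from 47.6 ± 2.53 to 23.2 ± 0.894 TPM. GCN4, the activator of amino acid synthesis, rose in the 3 mutants, in nam8D from 829 to 2526 TPM, and missed the size of a call in WT at 0.89. STE12 and TEC1, whose motifs are marked above, were not called in any genotype, with 22.8 and 16.0 TPM for STE12 and 49.8 and 41.4 TPM for TEC1 in log and starved WT.

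Of 12 suppressors of Ty insertions and chromatin factors, which include histone regulators, 2 rose in WT and 3 in each mutant, and none fell, where 27.8% of all tested rows rose in WT and 28.7% to 29.4% in the mutants. HIR1, a part of the histone gene repressor, went from 9.77 ± 0.435 to 20.6 ± 1.73 TPM in WT and rose in all 4 genotypes. Of 11 host factors of Ty movement, RTT105 rose in all 4, in WT from 16.1 to 55.6 TPM, and RTT10 fell in all 4, in WT from 23.6 to 9.69 TPM. RTT109, a histone acetyltransferase, fell in the 3 mutants, and RPC40, the RNA polymerase subunit that guides Ty1 insertion, fell in hsh49::Q24P and mud1D. Only called members of this list are named, and 8.62% of all tested rows fell in WT and 9.87% to 14.2% in the mutants. No member of these 3 lists was called in any mutant against WT in log phase. In starvation against WT, TYE7 and DBR1, the debranching enzyme that Ty1 needs, were lower in hsh49::Q24P and mud1D and SPT15 was higher in mud1D.

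Markers of mating type bear on Ty transcription, which is repressed in diploids. All 4 markers of mating type a were read in log phase, with MFA1 at 2062 TPM in WT, and all 4 fell in starvation in every genotype, MFA1 in WT to 217 TPM. Of all tested rows, 8.62% fell in WT and 9.87% to 14.2% in the mutants. The 3 markers of mating type alpha rose in starved WT, with a median difference of 1.83, and in no mutant, where 27.8% of all tested rows rose in WT. A difference does not give the level of these markers. The part of either marker set in the LTR values was not tested.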

How the data were processed

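The data are 24 poly(A)-selected, directional RNA sequencing libraries, per the labels' protocols. The TPM values were computed and deposited by the authors in 1 table, whose 4 empty lines were not used. FastQC 0.11.9, Trimmomatic 0.39 and STAR 2.7.9a are named in the submitters' processing notes, and build, annotation and strand setting are not given in the sources used here.

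From these values, log2(TPM + 1) was fitted in limma 3.58.1 (R 4.3.3, Python 3.11.15), for rows at 1 TPM or more in at least 3 libraries and without spike-ins. The 24 libraries entered 1 model of 8 group means with an intensity trend and 16 residual degrees of freedom. The 13 comparisons were adjusted by Benjamini-Hochberg over 6937 rows, and calls needed an adjusted p under 0.05 together with 1 log2 unit or more. Class sums carry no test. The code was tested on simulated data.

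The text names the 3 highest rows of each class, up to 5 called rises and 5 falls per comparison among rows with a mean of at least 2 TPM, their neighbouring genes and called list members. Other rows it names were chosen after their values were seen. The members and lists were chosen with earlier results of these data known. Sequences and positions are those of RefSeq's R64 assembly. Alternatives covered pseudocount, filter, scaling, tested rows, intensity trend, replicate block and each library left out. Replicates are biological per the labels, and sequencing depth is unknown.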

Additional observations from a re-analysis of the deposited data

Results flagged for a closer look

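LTR rows whose starvation response was called different from that of WT, by the interaction term of the limma model, were more than are listed here. They numbered 37 for hsh49::Q24P, 30 for nam8D and 33 for mud1D. A selection of 30 differences, in 17 rows, is given here. It holds 5 called differences in each direction per mutant, among rows with a mean of at least 2 TPM. Each is the mutant response minus the WT response on the log2(TPM + 1) scale, with its SE and the limma adjusted p where stated. The 3 mutants are compared with the same WT libraries, so their values are not independent.

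In hsh49::Q24P the response was larger than in WT for YPLWsigma1 by 1.68 ± 0.47 (adjusted p = 0.0067), for YMRCdelta13 by 1.61, for YLRWdelta4 by 1.29, for YKLCdelta4 by 1.26 and for YORCdelta15 by 1.25. It differed downwards for YOLCdelta1 at -1.90 ± 0.27 (adjusted p = 1.7e-05), YHLComega1 at -1.83 ± 0.55, YLRWdelta6 at -1.79, YERWomega2 at -1.58 and YCRCdelta6 at -1.54.

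In nam8D the larger responses were those of YPLWsigma1 at 2.52 ± 0.47 (adjusted p = 0.00024), YNLCsigma1 at 2.20, YMRCdelta13 at 1.80, YORCdelta15 at 1.66 and YELCdelta3 at 1.65. The smaller or opposite ones were those of YERWomega2 at -2.63 ± 0.43 (adjusted p = 7.5e-05), YMRWtau2 at -2.36, YOLCdelta1 at -1.78, YERWdelta12 at -1.56 and YHRWdelta7 at -1.49. With spike-in scaling YORCdelta15 at 0.99 and YELCdelta3 at 0.98 were under the size of a call. With a pseudocount of 0.1 the limma adjusted p was 0.065 for YELCdelta3 and 0.063 for YERWdelta12. YERWdelta12 was at -0.81 with a pseudocount of 5.

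In mud1D they were YNLCsigma1 at 1.56 ± 0.38 (adjusted p = 0.0024), YERCtau2 at 1.41, YELCdelta3 at 1.22, YDRCdelta6a at 1.12 and YLRWdelta4 at 1.04, and in the other direction YLRWdelta6 at -2.35 ± 0.46 (adjusted p = 0.00031), YERWomega2 at -2.18, YERWdelta12 at -1.76, YMRWtau2 at -1.74 and YOLCdelta1 at -1.74. YDRCdelta6a was at 0.94, 0.87 or 0.93, under the size of a call, without WT log replicate 3, WT starvation replicate 1 or mud1D starvation replicate 1. YLRWdelta4 was at 0.98, 0.83 or 0.88 without WT log replicate 1, mud1D log replicate 2 or mud1D starvation replicate 1. The adjusted p of YELCdelta3 in mud1D was 0.058 to 0.11 without any one of 6 libraries (WT log replicates 1 and 2, WT starvation replicate 1, mud1D log replicate 2, mud1D starvation replicates 2 and 3).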

How the results depend on the processing

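Depth is unknown, so low rows carry no counting error here, and pseudocount, minimum and scale decide how many LTR rows were called. For each change below the cause was not tested. With a pseudocount of 5, rises in WT, hsh49::Q24P, nam8D and mud1D were 58, 50, 59 and 48 (reported: 130, 110, 122 and 101) and falls 3, 6, 4 and 4. Calls against WT in log phase were then 1 in hsh49::Q24P and 1 in mud1D, in starvation 6, 10 and 10 for hsh49::Q24P, nam8D and mud1D, and for the response 9, 12 and 8. With a minimum of 10 TPM, which removes rows, rises were 61, 54, 60 and 52, falls 4 in WT, 5 in hsh49::Q24P and 5 in mud1D, log-phase calls 1 in hsh49::Q24P and 1 in mud1D, starvation calls 15, 15 and 16, and response calls 18, 15 and 16. A pseudocount of 0.1 left 1 log-phase call in hsh49::Q24P. Median centring gave 90, 87, 87 and 82 rises in WT, hsh49::Q24P, nam8D and mud1D, and 11, 15, 16 and 15 falls.

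Spike-in scaling gave 69 and 70 rises in hsh49::Q24P and nam8D, 28, 24 and 26 falls in hsh49::Q24P, nam8D and mud1D, 7 and 5 log-phase calls in hsh49::Q24P and mud1D, and 87, 65 and 68 response calls. On it the log2 difference of the sums between starvation and log phase, for WT, hsh49::Q24P, nam8D and mud1D in turn, was 0.64, -0.37, -0.13 and -0.15 for delta, 0.64, -0.087, 0.31 and 0.13 for sigma, 1.24, 0.29, 0.43 and 0.63 for tau, and -0.14, -3.18, -2.57 and -2.22 for omega. Without the highest row of the class it was 1.21, 1.39, 1.78 and 1.29 for sigma, 1.35 in nam8D and 1.35 in mud1D for tau, and 1.71 in WT and -0.22 in hsh49::Q24P for omega.

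Leaving out 1 library at a time, log-phase calls ranged from 1 to 2 in hsh49::Q24P and from 1 to 3 in nam8D, and the omega difference of WT from -0.17 to 0.70, turning to -0.05 without WT log replicate 2 and to -0.17 without replicate 3. Of 107 calls of named rows, none turned direction. With a pseudocount of 5, 31 were lost, with one of 0.1, 9, and with spike-in scaling, 15, among them YPLWsigma1 in starved hsh49::Q24P (0.98) and YNLCsigma1 in starved mud1D (just under 1), and 29 could not be fitted at the minimum of 10 TPM. Without a filter, with only genes and LTRs tested, without the intensity trend, with sums over tested rows only or rescaled to coding genes, and with only the groups compared, counts and sums kept their direction and stayed near the reported values.

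Replicates share numbers across groups, but on the median same-numbered libraries deviated together about as little as different-numbered ones. Their deviations had a median correlation of 0.0043 over 84 pairs, with 18 over 0.1. Different-numbered libraries had a median of -0.0017 over 168 pairs, with 33 over 0.1. Single pairs ranged from -0.62 to 0.41 with the same number and from -0.68 to 0.68 with different numbers. With the replicate number as a block, 130 LTR rows rose and 7 fell in WT, and 37 calls of the hsh49::Q24P response became 36, and no call of a named row was lost.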
